A study of Rattus norvegicus with 6 samples.

Results

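The genes described here form the folding, collagen secretion and stress machinery of the endoplasmic reticulum (ER), the compartment in which secreted proteins fold. They were chosen by name: 41 genes of ER chaperones, procollagen folding and export, and the unfolded protein response, of 37203 gene names in the deposited count table. All 41 were in the table and all 41 passed the filter on low counts, which left 16066 genes. The libraries were made from RNA of alveolar tissue (bone and soft tissue that hold the teeth) of rats during orthodontic tooth movement with or without corticision, a surgical cut into the cortical bone that is used to hasten tooth movement. By their titles, 3 libraries are cases (case 5, case 6 and case 9) and 3 are controls (control 5, control 6 and control 10). The source field gives tooth movement without corticision for the cases and with corticision for the controls, opposite to the usual sense of the titles, so which group was operated on cannot be told from the labels. Both groups had tooth movement, and no age, strain, sex, force or time is given in the labels. The labels do not say whether the 3 libraries of a group are 3 animals, and p-values therefore measure only how these libraries spread, which may be technical.

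Fibroblasts, osteoblasts and odontoblasts make type I procollagen in the ER. Its chains enter through the Sec61 channel, are held by general chaperones and by collagen-specific helpers, and leave in large COPII carriers. When unfolded protein accumulates, the sensors Ire1 (gene Ern1), Perk (gene Eif2ak3) and Atf6 start the unfolded protein response, which raises chaperone and degradation genes through the factors Xbp1, Atf6 and Atf4. In bone-forming cells the related membrane-bound factor Oasis (gene Creb3l1) drives secretory genes. Gene counts do not show the splicing of Xbp1, the phosphorylation of sensors or the cleavage of Atf6.

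Depth was 10886303 to 14433740 counts per library, and each member had at least 24 counts in each library. Values are in CPM, counts scaled to a library of 1000000, adjusted by the trimmed mean of M-values (TMM), and differences are case minus control. The libraries numbered 5 stood apart by tissue content. Summed CPM of the 8 tooth-forming cell markers was 459.6, 2.93 and 2.35 CPM in case 5, 6 and 9, against 89.8, 7.79 and 0.640 CPM in control 5, 6 and 10. Of these markers 0 were at a count of 0 in case 5 and in control 5, and 3 or 4 in each of the others. Summed CPM of 6 oral epithelium markers was 38.4, 46.1 and 22.4 CPM in case 5, 6 and 9, against 3367, 30.7 and 16.4 CPM in control 5, 6 and 10, and that of 8 skeletal muscle markers was 118, 378 and 1292 CPM in case 5, 6 and 9, against 9.19, 1032 and 1015 CPM in control 5, 6 and 10. The 9 osteoblast markers, which mark the bone-forming cells of alveolar tissue, were detected in all 6 libraries, with sums of 12063, 8492 and 9051 CPM in case 5, 6 and 9, against 9467, 11774 and 10779 CPM in control 5, 6 and 10. In tissue libraries of this kind, fewer cells of a type and less RNA per cell cannot be told apart.

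Sequence is given first for the members whose promoters carry a known ER stress motif. Promoter windows of RefSeq (assembly GRCr8, 250 bases before to 50 after the gene start) of 31 of the 41 members were searched on both strands. Only exact matches to the letters given were counted, so variant elements were not looked for. The ER stress element ERSE, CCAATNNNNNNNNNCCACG, is read by Atf6 with the factor NF-Y, and stood in the windows of 6 members, against 21 of 33468 windows of all genes (0.0627%). The shorter ERSE-II, ATTGGNCCACG, stood in 3 members' windows and in 17 of all windows (0.0508%). The core of the unfolded protein response element, TGACGTGG, stood in 3 members' windows and in 199 of all (0.595%). ERSE was defined on promoters of genes that include HSPA5 and HSP90B1, and ERSE-II on human HERPUD1, so these matches are a description of known genes. In Hyou1 an ERSE-II match overlaps the TGACGTGG match.

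The ERSE matches are printed because the genes that hold them had their highest value in the same library, as given below. Each line runs 5′ to 3′ in the sense of the motif with 10 bases on each side, and capitals mark the CCAAT and CCACG half-sites:
Hspa5 at chr3:38452963-38453001 (plus strand): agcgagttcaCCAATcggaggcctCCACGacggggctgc
Hsp90b1 at chr7:23012441-23012479 (minus strand): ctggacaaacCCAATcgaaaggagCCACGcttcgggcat
Hsp90b1 at chr7:23012337-23012375 (plus strand): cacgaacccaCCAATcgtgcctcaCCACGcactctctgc
Creld2 at chr7:121789229-121789267 (minus strand): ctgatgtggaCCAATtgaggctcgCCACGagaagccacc
Xbp1 at chr14:84604548-84604586 (plus strand): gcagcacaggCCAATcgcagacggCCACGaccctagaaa
Dnajc3 at chr15:102432524-102432562 (plus strand): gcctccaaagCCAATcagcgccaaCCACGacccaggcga
Calr at chr19:40213125-40213163 (minus strand): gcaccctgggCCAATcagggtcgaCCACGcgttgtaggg

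The ERSE-II matches follow in the same way, with ATTGG and CCACG in capitals:
Hyou1 at chr8:53602684-53602714 (minus strand): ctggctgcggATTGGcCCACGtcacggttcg
Hyou1 at chr8:53602784-53602814 (minus strand): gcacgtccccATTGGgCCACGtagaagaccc
Dnajb11 at chr11:91672790-91672820 (minus strand): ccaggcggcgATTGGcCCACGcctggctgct
Herpud1 at chr19:10614811-10614841 (minus strand): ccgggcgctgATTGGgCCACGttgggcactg

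Hspa5 encodes BiP, the central Hsp70-type chaperone of the ER lumen and the usual readout of ER stress, and its whole window is shown to place the element between the gene start and the upstream bases. The window is chr3:38452766-38453065 (plus strand, GRCr8), and its exact ERSE match lies 43 to 25 bases before the start, with both half-sites in capitals:
Hspa5 promoter: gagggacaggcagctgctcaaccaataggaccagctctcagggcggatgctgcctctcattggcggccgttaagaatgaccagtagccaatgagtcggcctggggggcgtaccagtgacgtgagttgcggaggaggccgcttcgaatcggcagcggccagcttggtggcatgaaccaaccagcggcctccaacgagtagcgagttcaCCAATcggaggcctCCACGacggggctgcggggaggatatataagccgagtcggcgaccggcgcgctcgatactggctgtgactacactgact

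**Figure D1:**
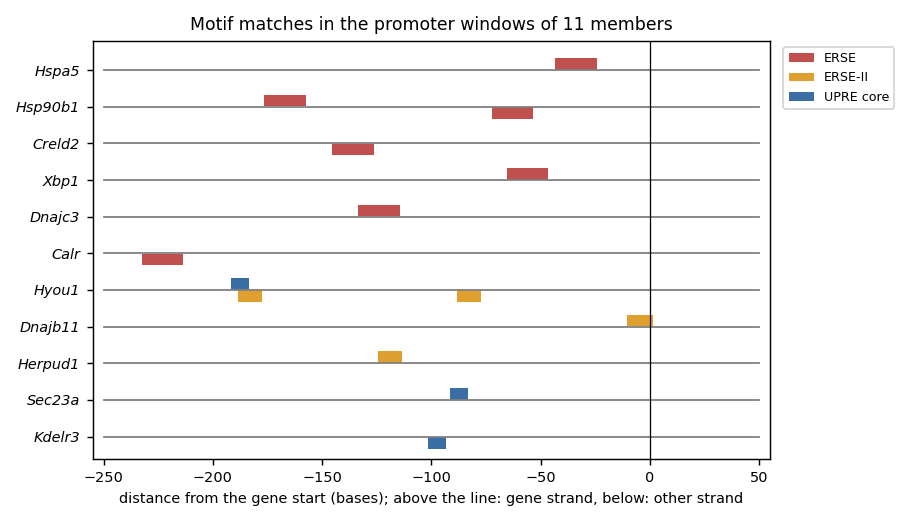
Positions of the motif matches in the promoter windows of 11 members, as distance in bases from the gene start (black vertical line). Bars above a line lie on the gene's strand and bars below it on the other strand. ERSE and ERSE-II matches lie upstream of the start in all 9 genes that hold one, except that the match of Dnajb11 ends on the first transcribed base.

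The comparison of case with control asked which of these genes differed between tooth movement without and with corticision, as the source field has it. No member passed the test. The edgeR quasi-likelihood test called 0 of 41 members, where the smallest p after Benjamini-Hochberg adjustment was 0.999, and it called 0 of all 16066 tested genes (0%). At an unadjusted p under 0.05 it gave 0 members, where 1.88% of all tested genes were higher and 2.27% lower in case. With DESeq2, 0 members and 21 of all genes were called, and 1 member (Sdf2l1) and 4.61% of all genes had an unadjusted p under 0.05. With limma-voom 0 members and 0 genes were called, and 0 members and 3.65% of all genes had such a p. The 3 case libraries lay wholly above the 3 control libraries in 1 member (Herpud1) and wholly below them in 1 (Atf4). Over all tested genes these shares were 4.05% and 4.42%. Of the members 23 had a positive and 18 a negative log2 fold change, with a median of 0.02 and a range of -0.55 to 0.73. The median over all tested genes was -0.02. Without case 9 the members' median was -0.04, so its sign turned. With the title number as a block it was -0.02. Numbers 9 and 10 each belong to a single library, so with the block case 9 and control 10 do not inform the difference. The block is therefore not a check apart from leaving out case 9, and it rests on the libraries numbered 5 and 6.

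**Figure D2:**
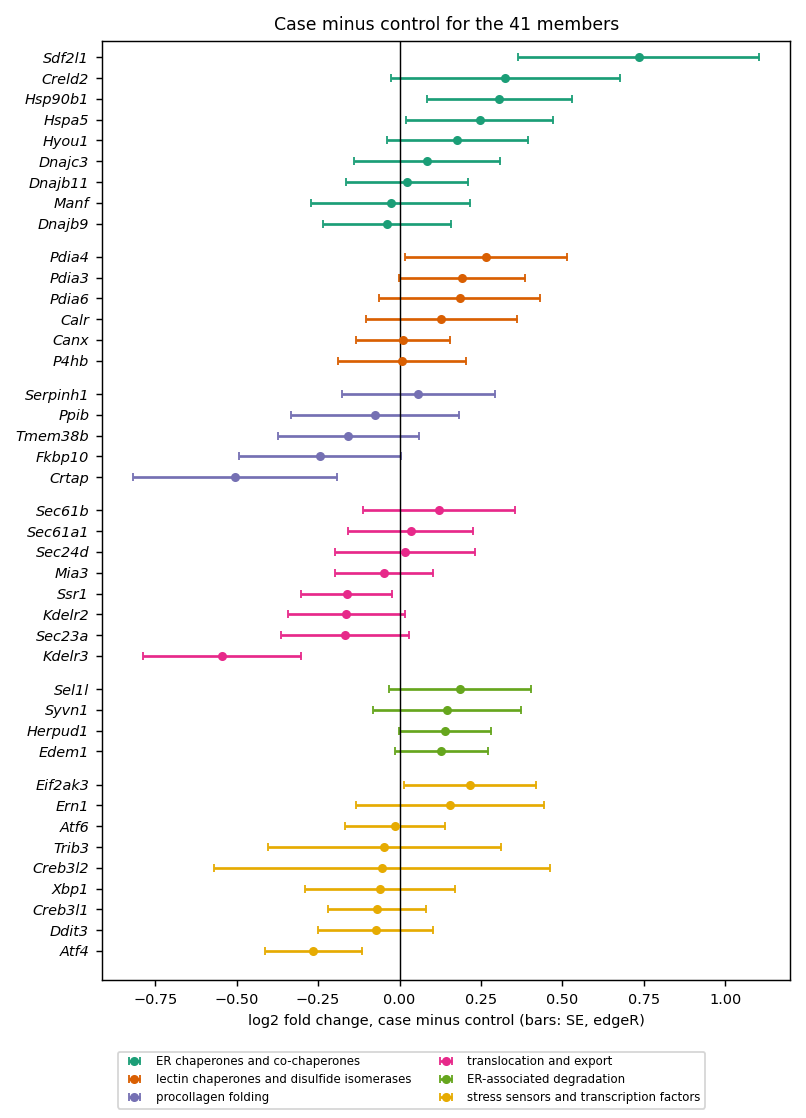
Log2 fold change of each member, case minus control, from edgeR, with bars of 1 standard error (SE); positive values are higher in case. Members are grouped by role and run from Sdf2l1 at 0.73 to Kdelr3 at -0.55.

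Single libraries held many of the extreme values. Case 9 held the highest value of 19 of the 41 members, where it was highest in 15.8% of all tested genes. Control 5 held the lowest value of 17 members, where it was lowest in 20.5% of all tested genes, and case 6 held the highest of 0. Among members with a mean of at least 5 CPM, the ratio of the highest to the lowest library had a median of 1.62, and it was 1.61 over the 12164 tested genes at that level.

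**Figure D3:**
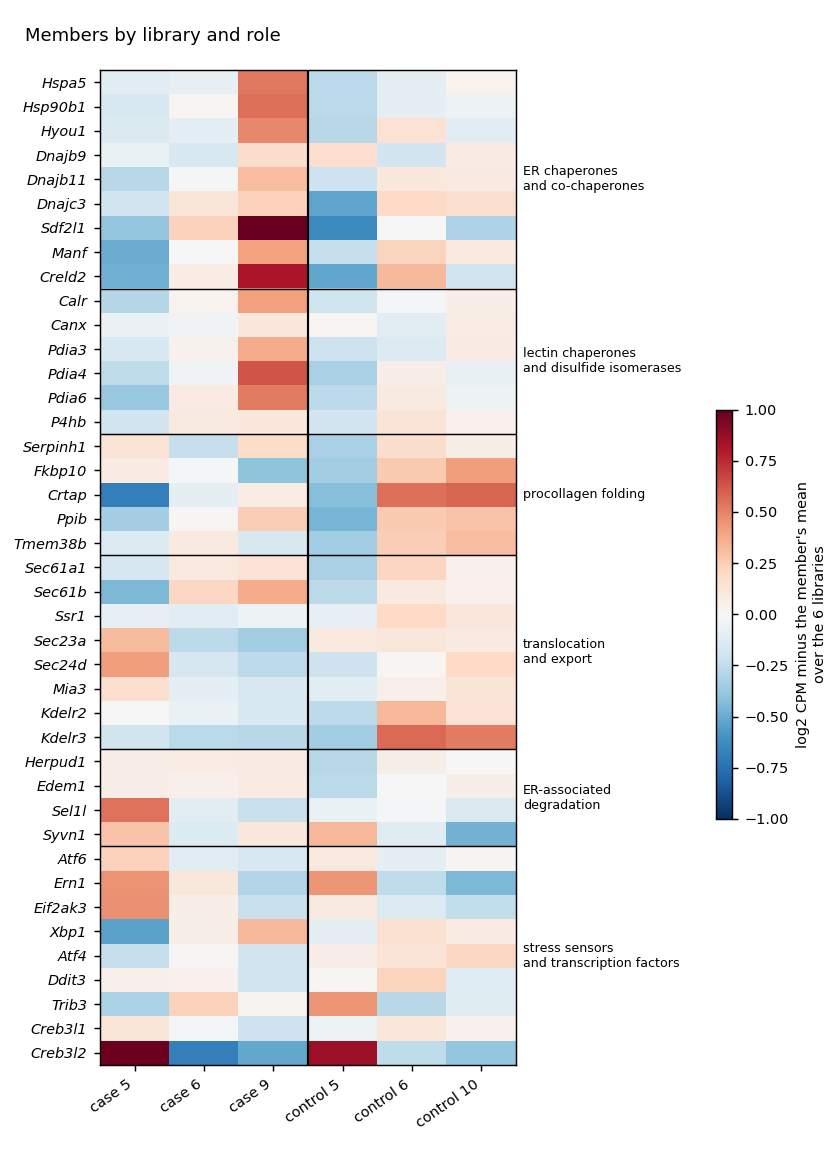
Log2 CPM of each member in each library minus that member's mean over the 6 libraries, with cases left and controls right of the vertical line; horizontal lines separate the roles and colours saturate at 1. Case 9 is the highest library for all 9 members listed as chaperones and co-chaperones, and Creb3l2 is high in case 5 and control 5.

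All 9 members listed as ER chaperones and co-chaperones had their highest value in case 9, and 6 of the 9 had their lowest in control 5. The margin of case 9 was small in Dnajb9 (16.5 CPM, against 16.4 CPM in control 5) and Dnajc3 (84.3 CPM, against 82.5 CPM in control 6). Other ER folding genes, which are not members, did not peak there as a list. Over 31 of them the median deviation of log2 CPM from each gene's mean was -0.03 in case 9, against 0.14 in control 6 and control 10. Of these, Hspa13 and Dnajc10 were highest in case 5 and Sil1 in control 6, while Erp29 was highest in case 9. Hspa5 had 512, 521 and 797 CPM in case 5, 6 and 9, against 459, 518 and 565 CPM in control 5, 6 and 10. Hsp90b1, the ER form of Hsp90 known as Grp94, had 466, 528 and 761 CPM in case 5, 6 and 9, against 431, 488 and 501 CPM in control 5, 6 and 10. In both genes case 9 stood alone, while case 5 and case 6 lay among or close to the controls. Case 9 was 1.55 times the mean of the other 5 libraries for Hspa5 and 1.58 times for Hsp90b1. The log2 fold changes were 0.25 (SE 0.23) and 0.31 (SE 0.22), and without case 9 they were 0.0066 and 0.07.

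Sdf2l1, a partner of the co-chaperone Dnajb11 in the ER lumen, and Creld2, an ER protein with disulfide isomerase activity, had the widest spread of this group. Sdf2l1 had 41.9, 64.3 and 118 CPM in case 5, 6 and 9, against 35.3, 55.3 and 44.3 CPM in control 5, 6 and 10, a ratio of highest to lowest library of 3.35. Case 6 and case 9 lay above all controls, and case 5 lay among them. Its log2 fold change of 0.73 (SE 0.37) was the most positive of the members, and it was 0.23 with the title number as a block and 1.05 without case 5. Creld2 had 58.2, 85.5 and 143 CPM in case 5, 6 and 9, against 56.6, 102 and 70.7 CPM in control 5, 6 and 10, and its log2 fold change of 0.32 (SE 0.35) was -0.09 without case 9. Hyou1, the nucleotide exchange factor of BiP, was 1.48 times as high in case 9 as in the mean of the others, and the secreted survival factor Manf 1.37 times. For the J-domain co-chaperones the ratios were 1.15 (Dnajb9), 1.29 (Dnajb11) and 1.19 (Dnajc3).

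The 9 members with an ERSE or ERSE-II match in the window were all highest in case 9, with a median ratio of 1.40 to the mean of the other libraries. In Herpud1 and Dnajc3 the margin over the next library was small. Of the 22 members whose window held neither, 6 were highest in case 9 and the median ratio was 0.977. The 9 members not in the promoter table (Atf6, Ern1, Fkbp10, Kdelr2, Manf, Pdia3, Pdia6, Sec24d and Sec61a1) had 3. The motif and the role go together here, since 6 of the 9 are on the chaperone list and 1 more, Calr, is a lectin chaperone. Sdf2l1 and Dnajb9, whose windows hold neither motif, were highest in case 9 as well. Of 28 genes that are not members and hold either motif, 13 were tested. Of these 13, 4 were highest in case 9, with a median ratio of 1.04. Over all tested genes, 15.8% were highest in case 9. This grouping was made after the values were seen, rests on 1 library and was given no test.

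Of the lectin chaperones and disulfide isomerases, 5 of 6 were also highest in case 9. Calr encodes calreticulin, a lectin that holds glycoproteins in the lumen, and had 895, 1118 and 1452 CPM in case 5, 6 and 9, against 951, 1075 and 1143 CPM in control 5, 6 and 10. Canx, its membrane-bound relative calnexin, had 271, 276 and 304 CPM in case 5, 6 and 9, against 286, 261 and 297 CPM in control 5, 6 and 10 and was the steadiest member, with a ratio of highest to lowest library of 1.17. Pdia4, a disulfide isomerase, had 135, 157 and 249 CPM in case 5, 6 and 9, against 129, 169 and 153 CPM in control 5, 6 and 10. Case 9 was highest in Calr and Pdia4 by a margin and in Canx by little, and the groups overlapped in all 3. The isomerases Pdia3 and Pdia6 were 1.36 and 1.53 times as high in case 9 as in the mean of the others. P4hb, which is both a disulfide isomerase and the beta subunit of prolyl 4-hydroxylase, was highest in control 6. Its case 9 value was 1.09 times the mean of the other libraries. It had 988, 1201 and 1213 CPM in case 5, 6 and 9, against 987, 1235 and 1163 CPM in control 5, 6 and 10, with case 6, case 9, control 6 and control 10 close together and both libraries numbered 5 lower. All 6 log2 fold changes of this list were positive, from 0.01 (P4hb) to 0.26 (Pdia4), with a median of 0.16. Without case 9 those of Calr, Pdia4, Pdia6, Canx and P4hb were negative, and Pdia3 stood at 0.04.

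Of the 6 marker lists examined, 1 had its highest sum in case 9, that of skeletal muscle at 1292 CPM. The muscle sums were 118, 378 and 1292 CPM in case 5, 6 and 9, against 9.19, 1032 and 1015 CPM in control 5, 6 and 10. Single muscle markers were split. Acta1 (562 CPM in case 9), Myh1 and Myh2 were highest in case 9. Ckm, Myh4 and Tnnt3 were highest in control 10, and Myl1 and Mylpf in control 6. The median deviation of the chaperone list in log2 CPM was -0.19, 0.01 and 0.48 in case 5, 6 and 9. In control 5, 6 and 10 it was -0.27, 0.11 and 0.03. Plasma cells secrete antibody and carry a large ER. Their 8 markers, with 0 at a count of 0 in any library, summed to 582, 1015 and 778 CPM in case 5, 6 and 9, against 534, 834 and 670.4 CPM in control 5, 6 and 10, with case 6 the highest. Jchain alone made up 719 CPM of the sum in case 6, and each of the other plasma cell markers was highest in another library. The 7 macrophage and osteoclast markers in the table summed to 4887, 6677 and 6776 CPM in case 5, 6 and 9, against 4859, 8012 and 8509.8 CPM in control 5, 6 and 10, with control 10 the highest. The part of these cells in the values of case 9 was not tested.

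**Figure D4:**
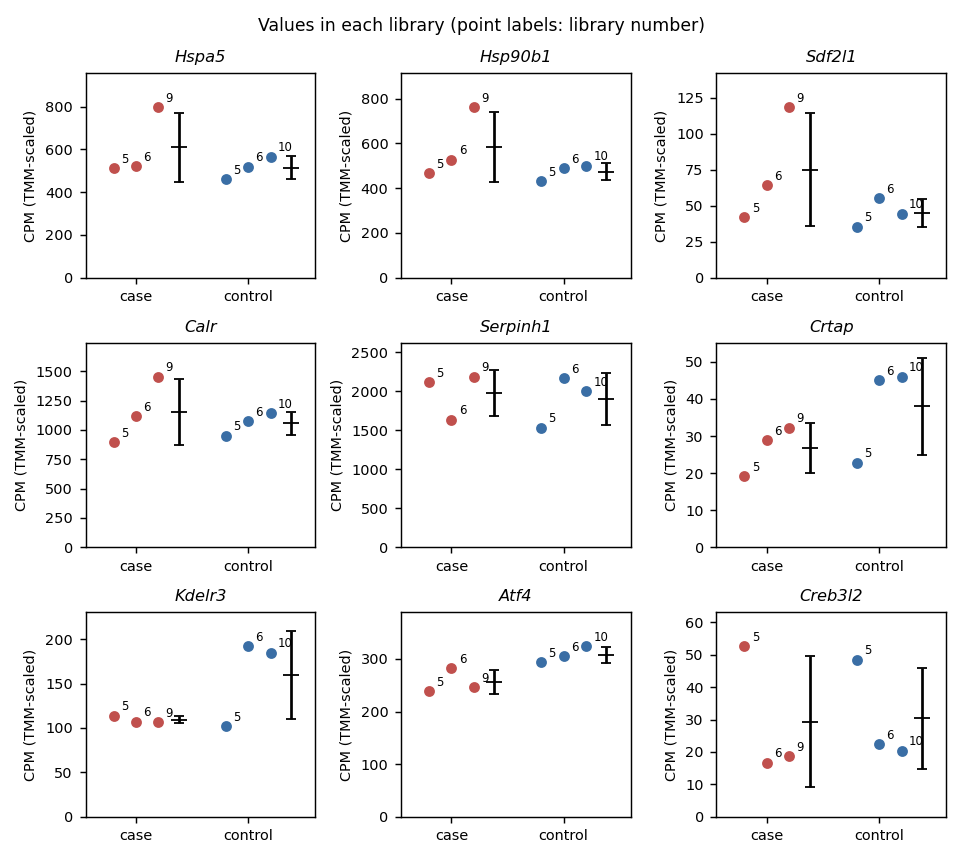
CPM of 9 members in each library, with linear axes from 0; points are single libraries labelled by number, with cases left and controls right, and the black mark is the group mean with 1 standard deviation (SD, n = 3). Case 9 stands alone in Hspa5, Hsp90b1, Sdf2l1 and Calr, control 6 and control 10 in Kdelr3 and Crtap, and the libraries numbered 5 in Creb3l2.

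Of 5 genes listed under procollagen folding, 1 (Serpinh1) was highest in case 9, as the listed chaperones were, and 4 were highest in control 10. Serpinh1 encodes Hsp47, the collagen-specific chaperone that binds the folded triple helix, and had 2113, 1637 and 2184 CPM in case 5, 6 and 9, against 1534, 2169 and 1996 CPM in control 5, 6 and 10. The groups overlapped over nearly their whole range, with case 6 and control 5 the low libraries, and the log2 fold change was 0.06 (SE 0.24). Crtap, a subunit of the complex that 3-hydroxylates collagen prolines, had 19.1, 28.9 and 32.3 CPM in case 5, 6 and 9, against 22.8, 45.1 and 46.0 CPM in control 5, 6 and 10. Control 6 and control 10 stood above all cases and control 5 lay among the cases, with a log2 fold change of -0.51 (SE 0.31). Fkbp10, a prolyl isomerase whose loss gives brittle bones in humans, had 544, 507 and 388 CPM in case 5, 6 and 9, against 404, 616 and 684 CPM in control 5, 6 and 10. Here too control 6 and control 10 were highest and control 5 was near the lowest, which was case 9. Ppib, the cyclophilin B subunit of the same complex as Crtap, and Tmem38b, an ER cation channel, were also highest in control 10, and both had their lowest value in control 5. The list had 1 positive and 4 negative log2 fold changes and a median of -0.16.

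The collagens that these genes serve moved otherwise in some libraries. Over 7 fibrillar collagen genes, the median deviation of log2 CPM from each gene's mean was 0.47, -0.46 and -0.50 in case 5, 6 and 9, against 0.04, 0.17 and 0.40 in control 5, 6 and 10. For the 5 procollagen folding genes it was -0.14, -0.02 and 0.07 in the cases, against -0.35, 0.26 and 0.30 in the controls. Case 5 was the highest library for collagen and lay below the mean for the folding genes. Case 9 was the lowest for collagen, close to case 6, and slightly above the mean for folding genes. In case 6, control 6 and control 10 both lists deviated in the same direction. All 7 collagen genes had a negative log2 fold change, with a median of -0.23, and 0 of them had an unadjusted p under 0.05. The 2 with the smallest p were Col3a1, the type III chain of ligament and vessels, and Col5a2, a type V chain that nucleates fibrils. Col3a1 had 8011, 4873 and 5199 CPM in case 5, 6 and 9, against 8135, 6829 and 10547 CPM in control 5, 6 and 10, and Col5a2 had 2479, 1301 and 1122 CPM in case 5, 6 and 9, against 1842, 2060.3 and 2354 CPM in control 5, 6 and 10. The groups overlapped in both, since case 5 lay among the controls in Col3a1 and above them in Col5a2, where the other cases lay below.

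**Figure D5:**
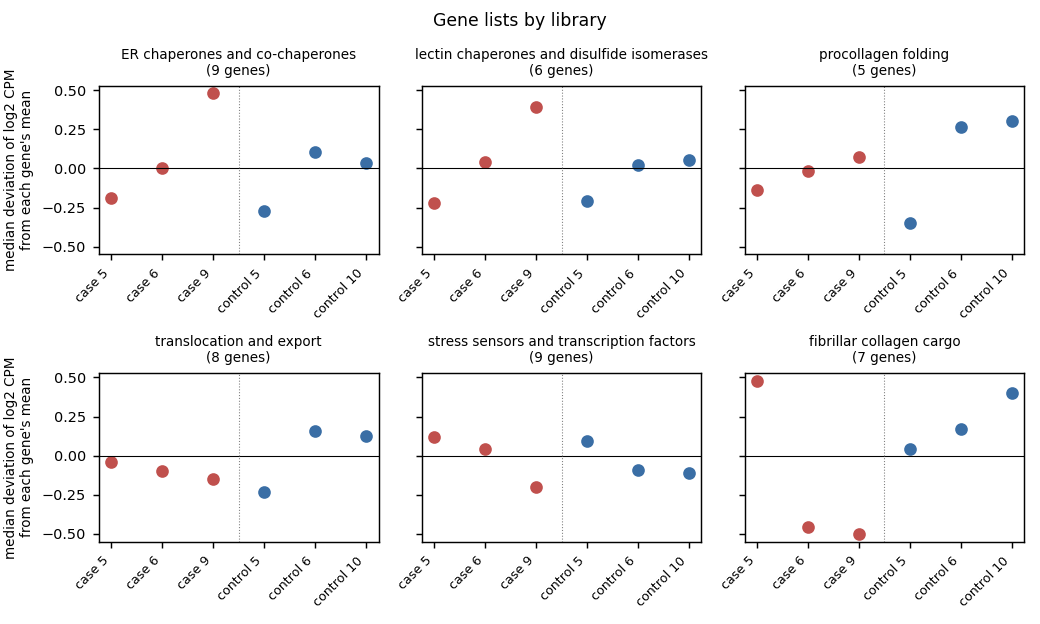
Median deviation of log2 CPM from each gene's mean over the 6 libraries, for 5 role lists and for fibrillar collagens, with cases left and controls right of the dotted line. Chaperones and isomerases peak in case 9 at 0.48 and 0.39, while collagens are lowest there at -0.50.

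Translocation and export genes were split between libraries. The channel subunits Sec61a1 and Sec61b and the translocon-associated Ssr1 bring chains into the ER. Sec61a1 had 277, 335 and 343 CPM in case 5, 6 and 9, against 249, 362 and 322 CPM in control 5, 6 and 10, with both libraries numbered 5 lowest. Ssr1 had 159, 156 and 162 CPM in case 5, 6 and 9, against 158, 193 and 182 CPM in control 5, 6 and 10, with control 6 and control 10 above all cases and control 5 among them. Its log2 fold change was -0.16 (SE 0.14). Export of procollagen uses the COPII coat subunits Sec23a and Sec24d and the receptor Mia3, known as Tango1. Sec23a had 69.2, 46.4 and 43.6 CPM in case 5, 6 and 9, against 59.6, 60.1 and 59.1 CPM in control 5, 6 and 10. The controls lay together, below case 5 and above case 6 and case 9. Sec24d had 168, 112 and 105 CPM in case 5, 6 and 9, against 109, 127 and 144 CPM in control 5, 6 and 10, and Mia3 had 146, 122 and 117 CPM in case 5, 6 and 9, against 121, 135 and 142 CPM in control 5, 6 and 10. In all 3 export genes case 5 was highest and case 9 lowest, the same order of these 2 libraries as in the collagens. That was not particular to export, since Sel1l, Atf6 and Creb3l1 had the same highest and lowest library. The log2 fold changes were -0.17 (SE 0.20), 0.02 (SE 0.22) and -0.05 (SE 0.15) in Sec23a, Sec24d and Mia3, and those of Sec24d and Mia3 changed sign between settings.

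Receptors that return escaped ER proteins from the Golgi gave the most negative value among the members. Kdelr3, one of the KDEL receptors, had 114, 107 and 107 CPM in case 5, 6 and 9, against 102, 192 and 185 CPM in control 5, 6 and 10. The cases and control 5 lay together between 102 and 114 CPM, and control 6 and control 10 stood well above them. The log2 fold change was -0.55 (SE 0.24) and stayed negative in all 17 other settings, between -0.78 without control 5 and -0.34 with the title number as a block. Kdelr2 had a log2 fold change of -0.16 (SE 0.18), with its highest values also in control 6 and control 10, and it stood at -0.00080 without control 6 and -0.31 without control 5. Kdelr1, the third receptor and no member, had 208, 215 and 238 CPM in case 5, 6 and 9, against 224, 308 and 307 CPM in control 5, 6 and 10.

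The 4 genes of ER-associated degradation, which draws misfolded proteins out for the proteasome, had positive log2 fold changes of 0.13 to 0.19, each of which changed when 1 library was left out. Without control 5 Herpud1 stood at 0.05 and Edem1 at 0.04, without case 5 Sel1l stood at -0.06, and without control 10 Syvn1 stood at 0.0093. Herpud1, a stress-induced organiser of the degradation complex, had 117.4, 118.2 and 118.8 CPM in case 5, 6 and 9, against 92.4, 116.9 and 112.5 CPM in control 5, 6 and 10, so the cases lay together and above each control. The means were 118 ± 0.667 CPM for case and 107 ± 13.0 CPM for control (SD, n = 3 each). Control 6 lay close to the cases and control 5 far below them, and the log2 fold change was 0.14 (SE 0.14). Edem1, which picks out misfolded glycoproteins, had 154, 152 and 155 CPM in case 5, 6 and 9, against 122, 147 and 153 CPM in control 5, 6 and 10. Control 5 was the lowest library and the other 5 lay between 147 and 155 CPM. Sel1l, the adaptor of the ubiquitin ligase Syvn1 (Hrd1), was highest in case 5 and lowest in case 9, and Syvn1 was highest in control 5 and lowest in control 10.

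Among sensors and factors, Atf4, the factor translated when Perk and related kinases are active, was the member whose cases all lay below the controls. It had 239, 283 and 246 CPM in case 5, 6 and 9, against 294, 306 and 324 CPM in control 5, 6 and 10. The means were 256 ± 23.6 CPM for case and 308 ± 15.3 CPM for control (SD, n = 3 each), with a log2 fold change of -0.27 (SE 0.15) that ran from -0.34 to -0.19 in the other settings. With library totals as the scaling, the groups of Atf4 overlapped. Its targets Ddit3 (Chop) and Trib3 had overlapping groups. Ddit3 had 20.2, 20.1 and 16.98 CPM in case 5, 6 and 9, against 19.7, 22.7 and 17.8 CPM in control 5, 6 and 10, with control 6 highest. Trib3, an inhibitor of Atf4 signalling, had few reads: 24, 42 and 29 counts in case 5, 6 and 9, against 37, 25 and 24 counts in control 5, 6 and 10. Scaled, Trib3 had 1.92, 2.79 and 2.44 CPM in case 5, 6 and 9, against 3.24, 1.97 and 2.19 CPM in control 5, 6 and 10, and the groups overlapped.

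Xbp1, the factor whose messenger is spliced by Ire1, had 149.9, 226 and 271 CPM in case 5, 6 and 9, against 204, 241 and 229 CPM in control 5, 6 and 10. It was highest in case 9, as the listed chaperones were, but lowest in case 5, and its window holds an ERSE. The sensor genes had another order. Ern1 had 36.2, 28.7 and 21.6 CPM in case 5, 6 and 9, against 36.0, 22.3 and 19.4 CPM in control 5, 6 and 10. Eif2ak3 had 58.5, 44.4 and 36.7 CPM in case 5, 6 and 9, against 45.4, 38.8 and 35.9 CPM in control 5, 6 and 10. Both were highest in case 5, and within each group highest in the library numbered 5. Atf6 was likewise highest in case 5 and then in control 5, at 87.5 and 79.5 CPM, and between 66.7 and 75.9 CPM in the others.

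Of the membrane-bound factors, Creb3l1 varied little, at 229, 208 and 182 CPM in case 5, 6 and 9, against 203, 229 and 218 CPM in control 5, 6 and 10. Its relative Creb3l2, known in mouse for driving secretory genes in cartilage, had 52.6, 16.6 and 18.7 CPM in case 5, 6 and 9, against 48.4, 22.4 and 20.4 CPM in control 5, 6 and 10, the second widest spread among members at or above 5 CPM. Case 5 and control 5 stood at 2.58 times the mean of the other 4 libraries, and among those 4 both cases lay below both controls. The log2 fold change was -0.05 (SE 0.52). That value was -0.75 without case 5, 0.46 without control 5 and -0.24 without both. The tooth-forming marker sums of 460 and 89.8 CPM in case 5 and control 5, against 0.640 to 7.79 CPM in the others, moved with Creb3l2. Some single osteoblast markers, named after their values were seen, did so too, although their summed list did not. Others of that list went the other way. The mean of the libraries numbered 5 was 0.66, 0.71 and 0.79 times that of the others in Ifitm5, Ibsp and Alpl, against 2.70 and 2.04 times in Phex and Sp7. Phex had 186, 55.9 and 47.7 CPM in case 5, 6 and 9, against 146, 88.0 and 53.8 CPM in control 5, 6 and 10, and Sp7 had 129, 60.8 and 52.5 CPM in case 5, 6 and 9, against 100.3, 62.7 and 49.2 CPM in control 5, 6 and 10. The part of these cells in the values of Creb3l2 was not tested.

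Leaving out the libraries numbered 5 changed how the members looked. With case 6 and 9 against control 6 and 10, 22 of 41 members had separate groups, 10 higher and 12 lower in case, and so had 46.8% of all tested genes. At an unadjusted p under 0.05 stood 5 members (Sdf2l1 higher, and Fkbp10, Crtap, Sec23a and Kdelr3 lower in case), as did 14.1% of all tested genes, and edgeR called 0 genes. The members' share of 5 in 41 was thus not above that of all genes.

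Other genes of the same machinery gave few differences. Of 31 tested ER folding genes that are not members, 12 had a positive and 19 a negative log2 fold change, and 1 (Ppic) had an unadjusted p under 0.05. Ppic, the cyclophilin C gene, had 176, 165 and 157 CPM in case 5, 6 and 9, against 190.03, 219 and 261 CPM in control 5, 6 and 10, with all cases below all controls. Clgn, a calnexin relative best known from testis, came next at 3.91, 0.931 and 1.18 CPM in case 5, 6 and 9, against 0.263, 0.945 and 0.640 CPM in control 5, 6 and 10, few reads with overlapping groups. Of 35 translocation and export genes, 16 were positive and 19 negative, and 0 reached that p. Sec23b, a COPII subunit and the counterpart of Sec23a, had 55.05, 53.8 and 49.7 CPM in case 5, 6 and 9, against 47.3, 41.8 and 44.4 CPM in control 5, 6 and 10. All cases lay above all controls in Sec23b. Of 30 degradation and stress response genes, 16 were positive and 14 negative, and 2 reached that p, both lower in case. Atf3, a stress-induced factor downstream of Atf4, had 2.16, 1.80 and 4.62 CPM in case 5, 6 and 9, against 11.1, 8.82 and 6.58 CPM in control 5, 6 and 10. Ppp1r15a, which encodes Gadd34, the phosphatase subunit that ends the Perk response, had 35.6, 26.1 and 31.2 CPM in case 5, 6 and 9, against 44.5, 44.9 and 37.3 CPM in control 5, 6 and 10. In both genes the cases lay below all controls, as in Atf4, and none passed adjustment over all genes. Atf3 is also an immediate early gene that other stresses raise, and it is given here for the smallness of its p, as was Ppp1r15a. Other genes of the list that are known as Atf4 targets, named after their values were seen, went both ways without an unadjusted p under 0.05. Chac1 had a log2 fold change of 0.28 (SE 0.31), Asns of 0.04 (SE 0.13), Stc2 of 0.69 (SE 0.54) and Cth of 0.57 (SE 0.57), while Sesn2 had -0.13 (SE 0.15) and Slc7a11 had -0.97 (SE 0.53). Cth, at 5 to 15 counts a library, and Slc7a11, at 8 to 27, had few reads. No test of the group was made.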

How the data were processed

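Per the labels' protocols, total RNA was extracted with TRIzol and libraries were prepared from it with an Ion Total RNA-Seq kit for single-end reads. The values are raw counts per gene name for 6 libraries, as deposited, and the table's columns were matched to libraries by title. The aligner, counter, genome build, annotation and strand setting were not given in the sources used here, so reads of near-identical or overlapping genes may be shared or split.

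Library totals were 10886303 to 14433740 counts. Counts were filtered with filterByExpr, scaled with TMM and tested across all genes in edgeR 4.0.16 by quasi-likelihood (R 4.3.3; group as the only term; two-sided; Benjamini-Hochberg adjusted threshold 0.05). The SE is the log2 fold change over the square root of F. Log2 CPM used a prior count of 2. The test was first checked on simulated data. Alternatives used DESeq2 1.42.0, limma-voom (limma 3.58.1), other scalings and filters, and left out libraries. RefSeq tables of assembly GRCr8 gave promoter sequences and 9 older gene names. The promoter window of 1 member is not reported here and was left out of the motif counts.

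The members and lists were chosen with earlier results of these data known. Values per library are given for members with the smallest p (the 6 smallest, and the smallest per role), the highest mean CPM per role, 14 chosen by name, and the 3 most and 3 least variable at a mean of at least 5 CPM. For related genes, the 2 with the smallest p per list are given, and any member may be named. The other motifs than ERSE, and the grouping of members by motif, were added after the values were seen. Members counted as separate have all case libraries above, or all below, all control libraries.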

Additional observations from a re-analysis of the deposited data

How the results depend on the processing

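All 41 members kept an adjusted p above 0.05 in each of 17 other settings. The sign of the log2 fold change turned in at least 1 setting for 28 members and in none for 13. Genes called over the whole table were 0, except 21 with DESeq2 and 0 to 2 with single libraries left out (2 without control 5). Members at an unadjusted p under 0.05 were 0, against 1 with no filter (4.28% of all genes), 1 with DESeq2 (4.61%), 3 with number 5 as a covariate (8.59%), 5 without both libraries numbered 5 (14.1%), and 0 to 2 with single libraries left out (2 without case 5, where 9.54% of all genes had such a p, and 2 without control 5, where 7.32% had). Members with separate groups were 2 in the main fit. With DESeq2, with its size factors in edgeR and with library totals, 2 members (Edem1 among them) lay above and 1 below all controls. The shares of all genes with separate groups were then 8.72%, 8.72% and 8.07%. Members with separate groups were 22 without both libraries numbered 5 and 2 to 9 with single libraries left out (9 without case 5 or control 5, 5 without control 10). The settings that leave out libraries hold fewer of them, and the shares of all genes with separate groups were larger too, 28.9% without case 5, 24.4% without control 5 and 13.9% without control 10.

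Only the numbers 5 and 6 occur in both groups. Deviations from the group means correlated across genes at 0.38 for case 5 with control 5 and 0.14 for case 6 with control 6. For pairs with different numbers the correlation ran from -0.34 (case 5 with control 6) to 0.28 (case 9 with control 6). The samples are known to share only a number. The replicate block, in which case 9 and control 10 do not inform the difference, called 0 genes. Log2 fold changes that turned sign with the block were those of Hyou1 (-0.053), Dnajb11 (-0.096), Creld2 (-0.11), Calr (-0.015), Canx (-0.00024), Pdia4 (-0.018), Pdia6 (-0.063), P4hb (-0.019), Fkbp10 (0.074), Tmem38b (0.030), Sec61b (-0.035), Mia3 (0.062), Syvn1 (-0.028), Atf6 (0.059), Creb3l1 (0.019) and, among other genes, Asns (-0.022). Without both libraries numbered 5 they were those of Dnajb9 (0.10), Manf (0.093), Serpinh1 (-0.085), Sec24d (-0.28), Sel1l (-0.045), Xbp1 (0.12), Trib3 (0.37) and Stc2 (-0.11). Library totals turned Dnajb9 (0.0039), Manf (0.035), Mia3 (0.0034) and Atf6 (0.030). Atf6 also turned with DESeq2 and with its size factors in edgeR (0.010 each), and Sec24d with limma-voom (-0.0056) and number 5 as a covariate (-0.0095).

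With each library left out in turn, the log2 fold changes that turned ran from -0.052 to 0.32 (Hyou1), -0.14 to 0.040 (Dnajb9), -0.14 to 0.18 (Dnajb11), -0.11 to 0.23 (Dnajc3), -0.26 to 0.20 (Manf), -0.087 to 0.61 (Creld2), -0.069 to 0.31 (Calr), -0.043 to 0.087 (Canx), -0.039 to 0.46 (Pdia4), -0.065 to 0.41 (Pdia6), -0.077 to 0.12 (P4hb), -0.072 to 0.19 (Serpinh1), -0.28 to 0.092 (Ppib), -0.099 to 0.18 (Sec61a1), -0.048 to 0.35 (Sec61b), -0.20 to 0.15 (Sec24d), -0.12 to 0.039 (Mia3), -0.062 to 0.33 (Sel1l), -0.12 to 0.059 (Atf6), -0.012 to 0.47 (Ern1), -0.26 to 0.17 (Xbp1), -0.12 to 0.054 (Ddit3), -0.18 to 0.20 (Trib3), -0.12 to 0.015 (Creb3l1), -0.75 to 0.46 (Creb3l2) and -0.083 to 1.04 (Stc2). The cause of these turns was not tested. Among the members, depth limits Trib3 most, at 24 to 42 counts a library.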
